A study of Rattus norvegicus with 6 samples.

Results

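The 10 genes described here encode proteins of the unfolded protein response and the integrated stress response, and were chosen by name: *Atf4*, *Ddit3*, *Trib3*, *Asns*, *Chac1*, *Hspa5*, *Hsp90b1*, *Xbp1*, *Dnajb9* and *Herpud1*. All 10 were found on the array, through the RefSeq transcript accessions of 16 probes, among 15281 genes named in this way and 61563 probes used. Renal cortex RNA came from male Sprague-Dawley rats of the stock Crl:CD(SD), purchased when 5 weeks old, and was hybridised to 6 one-colour Agilent arrays, 1 per sample. In the control group, 3 samples came from rats given the vehicle, corn oil, over 4 weeks. In the other group, 3 samples came from rats given the brominated flame retardant 2,2-bis(bromomethyl)-1,3-propanediol (BBMP) over the same 4 weeks, with a daily dose of 1000 mg/kg. The submitters describe them as biological replicates, and there was 1 dose, 1 duration and 1 sex. Cortex is a mixed tissue, so fewer cells of a type and less RNA per cell cannot be told apart. The comparison asks whether the compound changed the expression of these stress response genes.

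A cell in which unfolded proteins gather in the endoplasmic reticulum (ER) responds through the ER membrane sensors PERK, IRE1 and ATF6. PERK is also 1 of the kinases that phosphorylate the translation factor eIF2 alpha, which lowers protein synthesis in general and favours translation of ATF4, a transcription factor of amino acid and redox genes; this shared step is the integrated stress response. IRE1 splices the *Xbp1* transcript, and XBP1 and ATF6 switch on genes for ER chaperones and for the disposal of misfolded proteins (ER-associated degradation, ERAD). Translation of ATF4, splicing of *Xbp1* and phosphorylation of eIF2 alpha were not measured by these arrays, which report transcript abundance alone.

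The promoters of the 10 genes, taken from the RefSeq table of the GRCr8 assembly as the 250 bases before and 50 bases after the transcription start, were searched on both strands for 4 motifs of these pathways. The motifs were the ER stress response element (ERSE, made of CCAAT and CCACG with any 9 bases between them), a shorter element of the same kind (ERSE-II, made of ATTGG and CCACG with any 1 base between them), the unfolded protein response element core (UPRE, TGACGTGG) and the C/EBP-ATF response element (CARE, TGATGNAA), at which ATF4 is known to bind. ERSE, ERSE-II and, on its other strand, UPRE share the letters CCACG, and ATTGG of ERSE-II is CCAAT read on the other strand. Matches were found in 6 of the 10 promoters, and these are shown because the elements are the ones through which the ER stress factors and ATF4 are known to act. The sequences run 5′ to 3′ on the strand of the gene and stop before the transcript, with each match in capitals. For *Hspa5* they cover chr3:38452766-38453015 (plus strand), for *Hsp90b1* chr7:23012294-23012543 (minus strand), for *Xbp1* chr14:84604527-84604606 (plus strand), for *Herpud1* chr19:10614708-10614957 (minus strand), for *Chac1* chr3:126795881-126796130 (plus strand) and for *Trib3* chr3:161275534-161275613 (minus strand).
Hspa5: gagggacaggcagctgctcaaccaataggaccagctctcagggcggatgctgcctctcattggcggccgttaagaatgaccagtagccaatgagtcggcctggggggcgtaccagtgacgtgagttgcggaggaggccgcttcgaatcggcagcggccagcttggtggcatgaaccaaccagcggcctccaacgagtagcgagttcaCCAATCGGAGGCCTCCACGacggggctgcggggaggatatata
Hsp90b1: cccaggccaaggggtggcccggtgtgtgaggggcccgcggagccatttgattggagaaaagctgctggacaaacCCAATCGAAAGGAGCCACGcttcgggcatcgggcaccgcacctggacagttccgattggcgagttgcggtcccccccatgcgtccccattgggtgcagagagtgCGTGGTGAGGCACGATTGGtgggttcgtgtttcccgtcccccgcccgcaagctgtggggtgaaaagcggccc
Xbp1: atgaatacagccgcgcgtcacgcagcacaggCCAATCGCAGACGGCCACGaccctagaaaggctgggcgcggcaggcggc
Herpud1: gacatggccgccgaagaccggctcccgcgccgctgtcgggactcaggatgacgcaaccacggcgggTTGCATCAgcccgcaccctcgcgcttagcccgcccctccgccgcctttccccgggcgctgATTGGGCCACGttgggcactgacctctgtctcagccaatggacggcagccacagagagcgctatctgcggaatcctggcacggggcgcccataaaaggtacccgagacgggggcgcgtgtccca
Chac1: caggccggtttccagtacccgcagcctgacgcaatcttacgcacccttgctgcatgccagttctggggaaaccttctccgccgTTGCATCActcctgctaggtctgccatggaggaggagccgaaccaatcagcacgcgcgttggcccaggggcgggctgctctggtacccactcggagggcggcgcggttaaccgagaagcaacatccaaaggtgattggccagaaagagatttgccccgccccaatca
Trib3: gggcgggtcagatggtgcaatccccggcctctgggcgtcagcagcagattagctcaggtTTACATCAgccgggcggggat

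The chaperone genes *Hspa5* and *Hsp90b1* and the transcription factor gene *Xbp1* held ERSE, which occurred in 0.0657% of the 33469 promoters in the table. *Hsp90b1* held it on both strands, from 176 and from 72 bases before the start, *Xbp1* from 65 bases before and *Hspa5* from 43 bases before. *Herpud1* held ERSE-II, found in 0.0508% of promoters, from 124 bases before its start. CARE occurred in 3.98% of promoters and was found on the opposite strand in *Chac1*, *Trib3* and *Herpud1*, from 167, 21 and 184 bases before the start. UPRE occurred in 0.595% of promoters and in none of the 10. A match is a description of these letters and was not tested for binding, and no match says only that the letters are not in this window.

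Values are log2 processed signals minus the 75th percentile of the same array, so a value of 0 lies at that percentile. A gene was called higher or lower in BBMP where limma's p, adjusted by the Benjamini-Hochberg method over all genes or sequences tested, was under 0.05, and "rose" and "fell" are kept for calls. Each gene was represented by its brightest tested probe, and the other probes were read from a fit over all 42657 probes tested. Of 31582 genes or sequences, 17.9% were called, 10.2% higher and 7.68% lower, and the groups did not overlap in 43.6%. The number called in the whole table, 5659, depended on single arrays: it was 2 without BBMP replicate 1, 4 without BBMP replicate 2, 1553 without BBMP replicate 3, and 1751, 1505 and 3966 without control replicates 1, 2 and 3. Of all probes, 17.8% were called, 10.3% higher and 7.46% lower. The share of probes well above background was 67.2% to 68.6% on control arrays and 70.5% to 72.7% on BBMP arrays, without overlap. The 75th percentile lay between 943 and 949.7 intensity units on control arrays and between 1244 and 1259 on BBMP arrays. Each group had a slide and a scan of its own (slide 1 and scan 1 for control, slide 2 and scan 2 for BBMP), so the treatment cannot be told apart from either. All 3 BBMP arrays and control replicate 3 lay in slide row 1, and control replicates 1 and 2 in row 2. The fit below with slide row as a block thus takes its group difference from control replicate 3 alone among the controls. The 8 proximal tubule markers, among them *Slc34a1* and *Lrp2*, were well above background on all 6 arrays.

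Of the 10 genes, 1 rose and 0 fell. *Chac1*, which encodes an enzyme that breaks down glutathione, rose 1.25-fold. The other 9, among them the stress transcription factor genes *Atf4* and *Ddit3* and the major ER chaperone gene *Hspa5*, were not called in either direction. Without adjustment, 2 had a p under 0.05 in the higher direction (*Chac1* and *Xbp1*) and 2 in the lower direction (*Atf4* and *Hsp90b1*), and in these 4 the groups did not overlap. Over all genes tested, the groups did not overlap in 25.0% in the higher and 18.6% in the lower direction. The median difference was 0.03 on the log2 scale, beside 0.05 over all genes tested, with 5 genes above 0 and 5 below. The 95% interval of every one of the 10 differences lay within 2-fold in both directions, and the widest bound was at 1.54-fold. One called gene of 10 is near the share called among all genes.

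**Figure D1:**
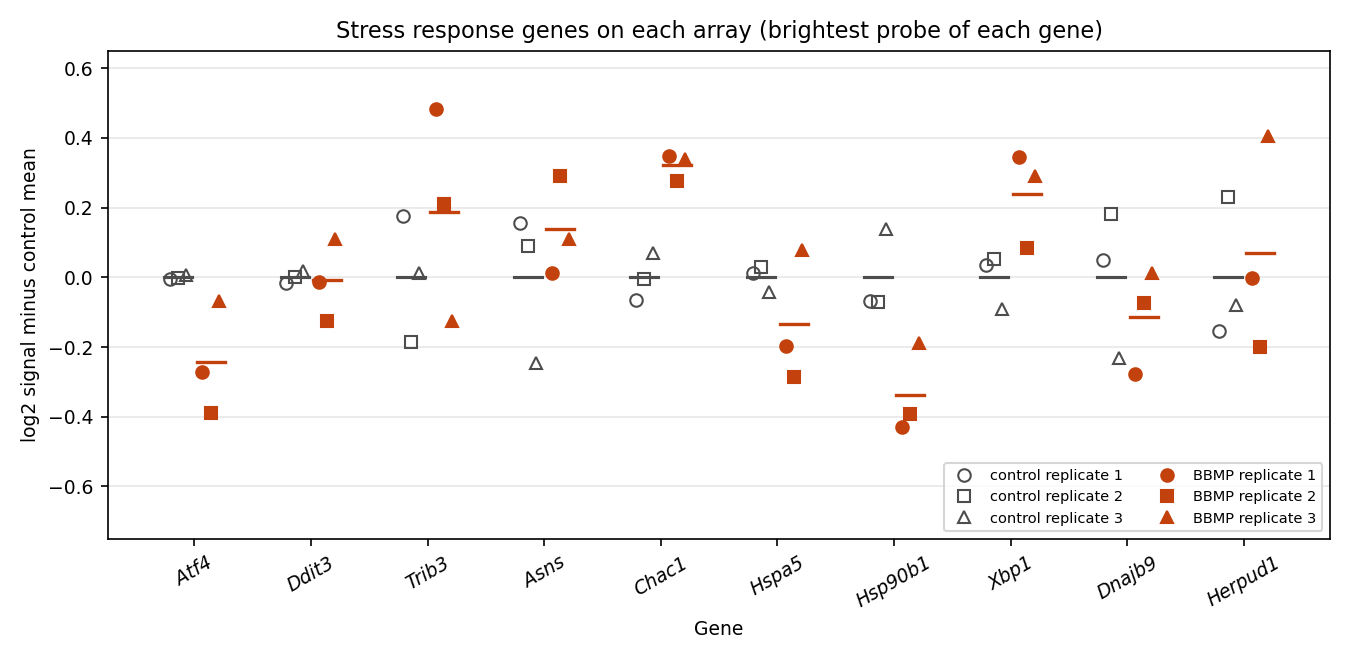
Normalized log2 signal of the brightest probe of each gene on each array, minus the control mean of that gene (vertical axis, log2 units); open grey symbols are control and filled orange symbols BBMP arrays, the symbol shape gives the replicate, and short bars are group means. The BBMP arrays lie above all control arrays for *Chac1* and *Xbp1* and below them for *Atf4* and *Hsp90b1*, and the groups overlap for the other 6 genes.

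*Atf4*, the central transcription factor gene of the integrated stress response, was measured at 4.59, 4.60 and 4.60 in the control samples and at 4.33, 4.21 and 4.53 in the BBMP samples. The control arrays were nearly identical, and all 3 BBMP arrays lay below them. The difference was -0.24 ± 0.09 (SE; 95% interval -0.47 to -0.01), which did not pass (limma adjusted p = 0.121). With normexp background correction it was -0.38 and was called lower (adjusted p = 0.0252).

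*Ddit3* encodes CHOP, a transcription factor that ATF4 switches on and that is known for promoting cell death under lasting ER stress. Its brighter probe was at 2.59, 2.61 and 2.62 in control and at 2.59, 2.48 and 2.72 in BBMP samples. The group means were 2.61 ± 0.02 and 2.60 ± 0.12 (SD, n = 3 each), and the BBMP arrays lay on both sides of the control arrays. The difference was -0.01 (95% interval -0.20 to 0.18; limma adjusted p = 0.942), and that of a probe for another transcript of *Ddit3* was -0.05 (95% interval -0.23 to 0.13). *Trib3*, a pseudokinase gene induced by ATF4 and CHOP, was dim, at -4.10, -4.46 and -4.26 in control and -3.79, -4.06 and -4.40 in BBMP samples. The groups overlapped, and the difference was 0.19 (95% interval -0.25 to 0.63; limma adjusted p = 0.483). Genes of similar brightness (1 of 10 equal classes) had a median difference of 0.16, close to that of *Trib3*.

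*Asns*, which encodes asparagine synthetase and is a standard readout of ATF4, was at -0.89, -0.96 and -1.29 in control and at -1.04, -0.76 and -0.94 in BBMP samples. The groups overlapped, with a difference of 0.14 (95% interval -0.19 to 0.47; limma adjusted p = 0.493). *Chac1*, another ATF4 target, was at -1.19, -1.13 and -1.05 in control and at -0.78, -0.85 and -0.78 in BBMP samples. All 3 BBMP arrays lay above all control arrays, with means of -1.12 ± 0.07 and -0.80 ± 0.04 (SD, n = 3 each). The difference was 0.32 ± 0.06 (SE; 95% interval 0.17 to 0.48; limma adjusted p = 0.0263). Genes of similar brightness had a median difference of 0.00. The 2 other probes of *Chac1* were too dim to test, 1 of them not well above background on any array and the other on only 2 BBMP arrays. *Chac1* was not called with normexp (0.17, adjusted p = 0.116), with the replicate block (0.32, adjusted p = 0.0928) or with slide row as a block. In that last fit the difference was 0.25 and rested on control replicate 3 alone among the controls. It was also not called without control replicate 1 (adjusted p = 0.0751) or 2 (0.0754) or BBMP replicate 1 (0.0842), 2 (0.0732) or 3 (0.0778), at 0.29 to 0.34.

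*Hspa5* encodes BiP, the HSP70-type chaperone of the ER that also holds the 3 sensors inactive. It was at 5.12, 5.13 and 5.06 in control and at 4.91, 4.82 and 5.18 in BBMP samples. BBMP replicates 1 and 2 lay below the control arrays and replicate 3 above them. The difference was -0.13 (95% interval -0.39 to 0.12; limma adjusted p = 0.397). *Hsp90b1* encodes GRP94, the HSP90-type chaperone of the ER. Its brighter probe was at 3.51, 3.51 and 3.72 in control and at 3.15, 3.19 and 3.39 in BBMP samples, without overlap, and the difference was -0.34 ± 0.10 (SE; 95% interval -0.58 to -0.09; limma adjusted p = 0.0663). Its other probe had the opposite sign, at 0.22 (95% interval -0.14 to 0.58; limma p adjusted over all probes = 0.321), with 1.04, 0.88 and 1.44 in control and 1.33, 1.35 and 1.35 in BBMP samples. The probes of *Hsp90b1* thus disagreed in direction, neither passed, and their mean differed by -0.06. The brighter probe was called lower with median scaling (-0.41, adjusted p = 0.0402), normexp (-0.33, 0.0489) and trend and robust moderation (-0.34, 0.0363), and the other was called higher without control replicate 3.

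*Xbp1*, the transcription factor gene of the IRE1 arm, was at 2.26, 2.28 and 2.13 in control and at 2.57, 2.31 and 2.51 in BBMP samples. The groups did not overlap, by a narrow margin, and the difference of 0.24 ± 0.09 (SE; 95% interval 0.01 to 0.46) did not pass (limma adjusted p = 0.119). With normexp it was 0.31 and was called higher (adjusted p = 0.0354). *Dnajb9* encodes ERdj4, a co-chaperone of BiP that is induced by XBP1. Its brighter probe was at 0.74, 0.87 and 0.46 in control and at 0.41, 0.61 and 0.70 in BBMP samples, with a difference of -0.11 (95% interval -0.44 to 0.22; limma adjusted p = 0.577). Its other probe fell 1.36-fold, from 0.20, 0.27 and 0.15 in control to -0.27, -0.28 and -0.18 in BBMP samples, without overlap (-0.45 ± 0.06, SE; limma p adjusted over all probes = 0.0156). Both probes of *Dnajb9* thus had a negative difference, and 1 of them passed. Their mean differed by -0.28 and did not pass (limma adjusted p = 0.092).

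*Herpud1* encodes an ER membrane protein of the ERAD machinery. Its brighter probe was at 3.55, 3.94 and 3.62 in control and at 3.70, 3.50 and 4.11 in BBMP samples, and the groups overlapped. The difference was 0.07 (95% interval -0.39 to 0.52; limma adjusted p = 0.816). The other probe, at 1.58, 2.04 and 1.80 in control and 1.96, 1.68 and 2.23 in BBMP samples, differed by 0.15 (95% interval -0.30 to 0.59). In both probes of *Herpud1* BBMP replicate 3 was highest of all arrays and BBMP replicate 2 lowest of its group.

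**Figure D2:**
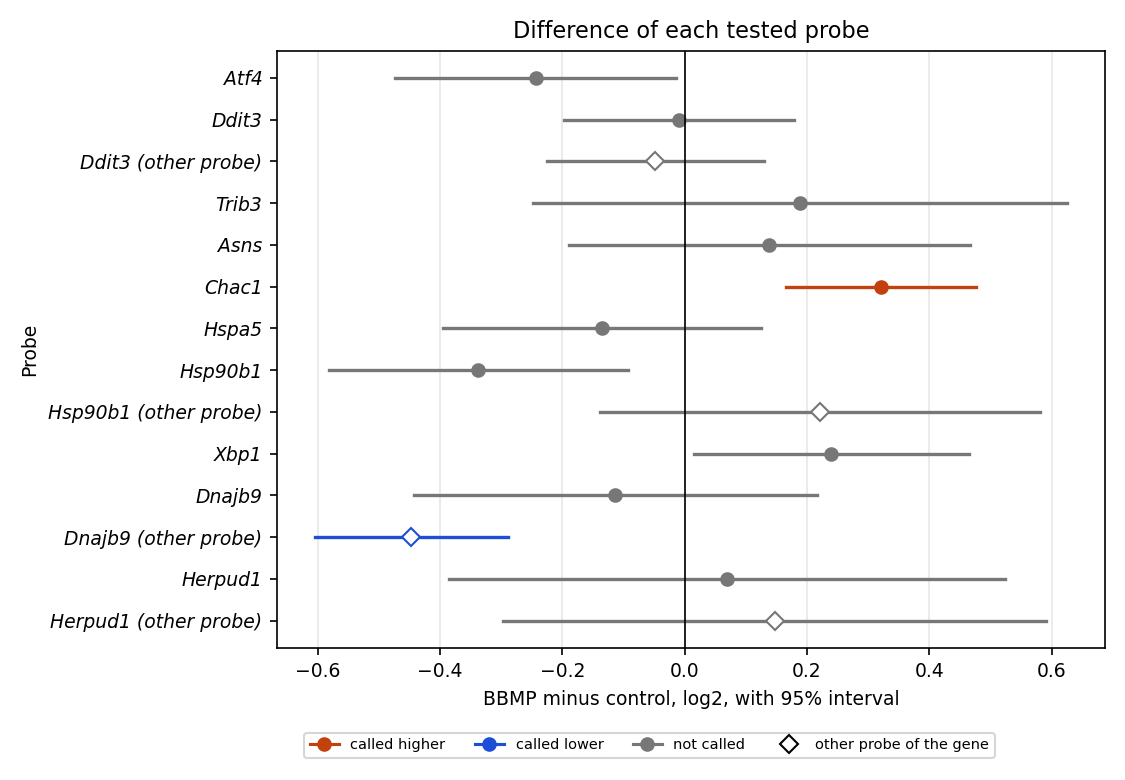
Difference between the group means (BBMP minus control, log2, horizontal axis) with its 95% interval for each of the 14 tested probes of the 10 genes; circles are the brightest probe of a gene, open diamonds other probes, and colour marks calls over all probes. The *Chac1* probe lies to the right of 0 at 0.32, the other *Dnajb9* probe to the left at -0.45, and the probes of *Hsp90b1* lie on opposite sides of 0.

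Of the 16 probes of these genes, 14 were tested, in 4 genes with 2 tested probes and 6 with 1. One tested probe was called higher and 1 lower, in different genes. The arrays of the BBMP group also differed among themselves. BBMP replicate 3 was the highest of its group in 6 of the 10 genes and replicate 2 the lowest in 6, where over all genes tested replicate 3 was highest in 36.3% and replicate 2 lowest in 33.7%. Without BBMP replicate 3 the difference was -0.24 for *Hspa5* and -0.33 for *Atf4*, and neither passed (limma adjusted p = 0.105 and 0.0642). The standard error of the difference had a median of 0.10 in the 10 genes, the same as over all genes.

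The other genes of these pathways were read from 4 lists of 88 genes in all, of which 76 were tested, 9 were not matched to a probe here and 3 were matched but too dim. Of the 76, 7 rose and 5 fell, or 15.8% called against 17.9% of all genes. The calls fell in both directions within each list that had any. The counts depended on the scaling, at 2 higher and 7 lower with median scaling and 7 and 10 with normexp. They also moved with the loss of calls over the whole table when an array was left out, given above, so few calls could be made in those fits: limma called 0 higher without control replicate 1 or 2 or any 1 BBMP replicate, where 7 to 10 had an unadjusted p under 0.05 in that direction, and 2 without control replicate 3. It called 0 lower without BBMP replicate 1 or 2, with 9 and 7 at an unadjusted p under 0.05, and 3, 4, 2 and 5 without BBMP replicate 3 and control replicates 1, 2 and 3.

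The sensors of the ER, the eIF2 alpha kinases and the phosphatase subunits that reverse them had 0 of 12 genes called by limma, and 1, in the lower direction, had an unadjusted p under 0.05. Their median difference was -0.04. *Eif2ak3*, which encodes PERK, was at 0.06, 0.20 and -0.02 in control and at -0.15, -0.14 and -0.07 in BBMP samples, without overlap, a difference of -0.20 (95% interval -0.39 to -0.01; limma adjusted p = 0.122). Its other, dimmer probe differed by -0.01. *Eif2ak1*, the heme-regulated eIF2 alpha kinase gene, was at 2.53, 2.77 and 2.60 in control and 2.55, 2.28 and 2.26 in BBMP samples, a difference of -0.27 (95% interval -0.54 to 0.01; limma adjusted p = 0.144), with its other probe at -0.24.

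Among targets of ATF4 and CHOP, 3 of 27 tested genes rose and 2 fell, with a median difference of 0.03. *Mthfd2*, a mitochondrial folate enzyme gene, fell 1.52-fold, from -1.43, -1.54 and -1.62 in control to -2.10, -2.12 and -2.19 in BBMP samples (-0.61 ± 0.07, SE; limma adjusted p = 0.0123), and its 4 other probes were also negative, 1 of them called. *Psat1*, the serine synthesis aminotransferase gene, fell 1.31-fold, from 5.68, 5.84 and 5.77 to 5.37, 5.43 and 5.31 (limma adjusted p = 0.0218). The other, much dimmer probe of *Psat1* was called in the opposite direction (0.42 ± 0.10, SE; limma p adjusted over all probes = 0.0451), so the direction of this gene depends on the probe. The genes that rose were *Sesn2*, *Sars1* and *Atf5*. *Sesn2*, which encodes a leucine sensor that restrains mTORC1 and is also a p53 target, rose 1.45-fold, from -0.24, -0.06 and 0.08 to 0.63, 0.38 and 0.37 (limma adjusted p = 0.0331). *Sars1*, the cytosolic seryl-tRNA synthetase gene, rose 1.23-fold (limma adjusted p = 0.0305), and its other probe was called with nearly the same difference, 0.31 against 0.29. *Atf5*, a transcription factor gene of the ATF4 family that is linked to mitochondrial stress, rose 1.20-fold (limma adjusted p = 0.0481) and was not called with median scaling or normexp. No sample of the 2 groups overlapped in any of these 5 genes.

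Among ER chaperones and folding enzymes, 1 of 18 rose and 2 fell, and 15 of 18 differences were negative, where 43.6% of all genes tested had a negative difference. The median was -0.06. The 43.6% covers genes of every brightness, and the dimmest of the 10 classes had a median difference of 0.29. In the brightness classes of the called genes the median was -0.01 (*Canx*) and 0.01 (*Ppib* and *P4hb*). Without adjustment, 2 of the 18 had a limma p under 0.05 in the higher and 5 in the lower direction. Over all genes tested, 11564 of 31582 had such a p in either direction. The linear normalized signals of the 18 genes summed to 132.1 to 137.8 in control and 120.0 to 127.6 in BBMP samples, without overlap. The groups did not overlap in 43.6% of all genes tested either. *Ppib*, the ER cyclophilin gene, fell 1.38-fold, from 4.35, 4.35 and 4.36 in control to 3.87, 3.90 and 3.89 in BBMP samples (-0.47 ± 0.05, SE; limma adjusted p = 0.0116). *Canx*, which encodes the lectin chaperone calnexin, fell 1.21-fold (limma adjusted p = 0.0325), while its dimmer probe differed by -0.02. *P4hb*, the protein disulfide isomerase gene, rose 1.15-fold, from 4.52, 4.52 and 4.51 to 4.72, 4.71 and 4.72 (limma adjusted p = 0.047). The arrays of each group lay close together for *P4hb* and the groups did not overlap. It was not called with median scaling, normexp, quantile normalization or cyclic loess.

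Among genes of ERAD and of the ER translocon, 3 of 19 rose and 1 fell, with a median difference of 0.10. Without adjustment, 4 had a limma p under 0.05 in the higher and 2 in the lower direction. The linear normalized signals of the 19 genes summed to 112.8 to 115.7 in control and 116.0 to 118.9 in BBMP samples, narrowly without overlap. The sums of the sensor list and of the ATF4 and CHOP target list overlapped between the groups. *Syvn1*, the ERAD ubiquitin ligase gene HRD1, rose 1.24-fold, from 2.45, 2.53 and 2.48 to 2.78, 2.79 and 2.82 (limma adjusted p = 0.0221), and its other probe had a similar difference of 0.33 that did not pass. *Ube2g2*, a ubiquitin-conjugating enzyme gene of ERAD, rose 1.26-fold (limma adjusted p = 0.0486) and was not called with median scaling or quantile normalization. *Vcp*, the ATPase gene whose product extracts proteins from the ER membrane, rose 1.21-fold, from 3.82, 3.77 and 3.89 to 4.11, 4.11 and 4.08 (limma adjusted p = 0.0335). *Faf2*, which encodes a membrane factor that recruits VCP, fell 1.33-fold, from 1.70, 1.80 and 1.68 to 1.30, 1.30 and 1.35 (limma adjusted p = 0.0159), although its dimmer probe differed by 0.07. *Vcp* was not called with median scaling, at 0.20, nor was *Sars1*, at 0.22.

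**Figure D3:**
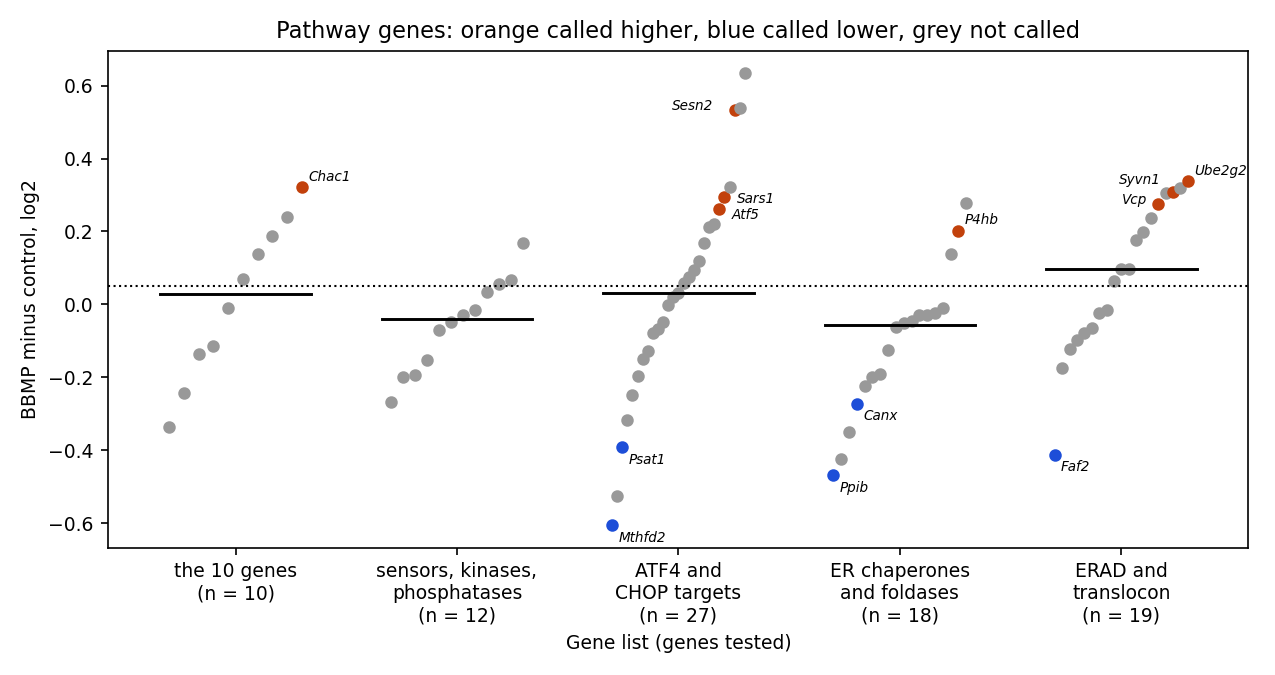
Difference between the groups (BBMP minus control, log2, vertical axis) for each tested gene of the 10 described and of the 4 pathway lists, sorted within each list; orange points were called higher, blue lower, grey not called, solid bars are list medians and the dotted line is the median over all genes tested, 0.05. Points lie on both sides of 0 in every list, and the list of sensors and kinases holds no called point.

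Genes that carry the same promoter elements were also compared. ERSE was present in 22 promoters, and 15 of those genes were tested, 9 of them in the lists above. Limma called 0 of the 15 higher and 1, *Canx*, lower, or 6.67% against 17.9% of all genes. Of the 15 differences, 12 were negative, where 43.6% of all genes of every brightness had a negative difference. The median was -0.03, in a range from -0.34 to 0.32. The groups did not overlap in 6 of the 15, and in 43.6% of all genes tested. The chaperone genes *Calr* and *Creld2* were at -0.01 and -0.02 and *Dnajc3*, an ER co-chaperone gene, at -0.05. Of 12 tested genes with ERSE-II, limma called 1 higher and 0 lower. That gene was *Nucb1*, a calcium-binding Golgi protein gene named after its value was seen, which rose 1.39-fold (limma adjusted p = 0.0173). *Hyou1*, an ER chaperone gene with ERSE-II, was at -0.35 (limma adjusted p = 0.0657). Of 82 tested genes with UPRE, 9 rose and 6 fell, or 18.3% called. Of 250 tested genes with CARE, 23 rose and 17 fell, or 16.0% called, with a median difference of 0.03.

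Markers of other cell types and of injury were read beside these results. Proximal tubule markers had 0 of 8 called by limma, and the sum of their linear normalized signals was 1259 to 1363 in control and 1339 to 1357 in BBMP samples. Thick limb, distal tubule and collecting duct markers had 0 of 7 called (0 and 1 with an unadjusted p under 0.05 for the proximal and the distal list), at sums of 415 to 606 and 441 to 582. Most of this distal sum was *Umod*, with log2 group means of 8.37 in control and 8.47 in BBMP samples. Podocyte and endothelial markers had 2 of 8 called, both higher, at 61.9 to 75.7 and 60.4 to 66.3. Leukocyte markers had 1 of 7 called, higher, at 87.6 to 99.0 and 63.9 to 99.4. Most of that leukocyte sum was *Lyz2*, with log2 group means of 6.45 in control and 6.30 in BBMP samples. The next brightest tested, *Cd68*, had means of 0.98 and 0.96. Of the 7 differences, 3 were negative. Markers of plasma cells, which have a large ER, had 1 of 4 called, *Sdc1*, which rose by 0.49 and is also an epithelial gene, and their sum was 4.11 to 4.74 in control and 5.34 to 6.17 in BBMP samples. Most of that sum was *Sdc1*, at 3.32 to 4.15 and 4.70 to 5.52, and the other 3 tested genes, *Prdm1*, *Irf4* and *Pou2af1*, summed to 0.557 to 0.774 and 0.599 to 0.787, with overlap. *Irf4* was well above background on 1 control array and all 3 BBMP arrays, so it was tested through the BBMP group. The plasma cell genes *Mzb1* and *Tnfrsf17* were too dim to test, and *Jchain* and *Cd79a* were not matched to a probe here. Adrenal markers had 2 of 4 called, both higher, at 2.72 to 2.73 and 3.41 to 3.57, with *Star*, *Cyp11b1* and *Dbh* below that limit on every array. Of 8 tubule injury markers, 1 was called, *Havcr1*, the gene of kidney injury molecule 1. It was well above background on only 2 of the 3 control arrays and on all 3 BBMP arrays, so it was tested through the group where it was high, at -5.63, -5.20 and -5.20 in control and -4.52, -4.66 and -4.54 in BBMP samples. Its difference was 0.77, where genes of similar brightness had a median difference of 0.29. The sum of the injury markers was 33.7 to 41.0 in control and 38.3 to 53.7 in BBMP samples. The sums of the adrenal markers and of the plasma cell markers did not overlap between the groups, and 43.6% of all genes tested did not overlap either. The adrenal genes called were *Th* (0.36), the brightest of the 4 tested, and *Cyp21a1* (0.59). *Pnmt*, at 0.25, and the dim *Cyp11b2*, at -0.29, were not called. *Cyp11b2* was well above background on 1 control array and all 3 BBMP arrays, so it too was tested through the BBMP group. The part of these markers in the results was not tested.

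**Figure D4:**
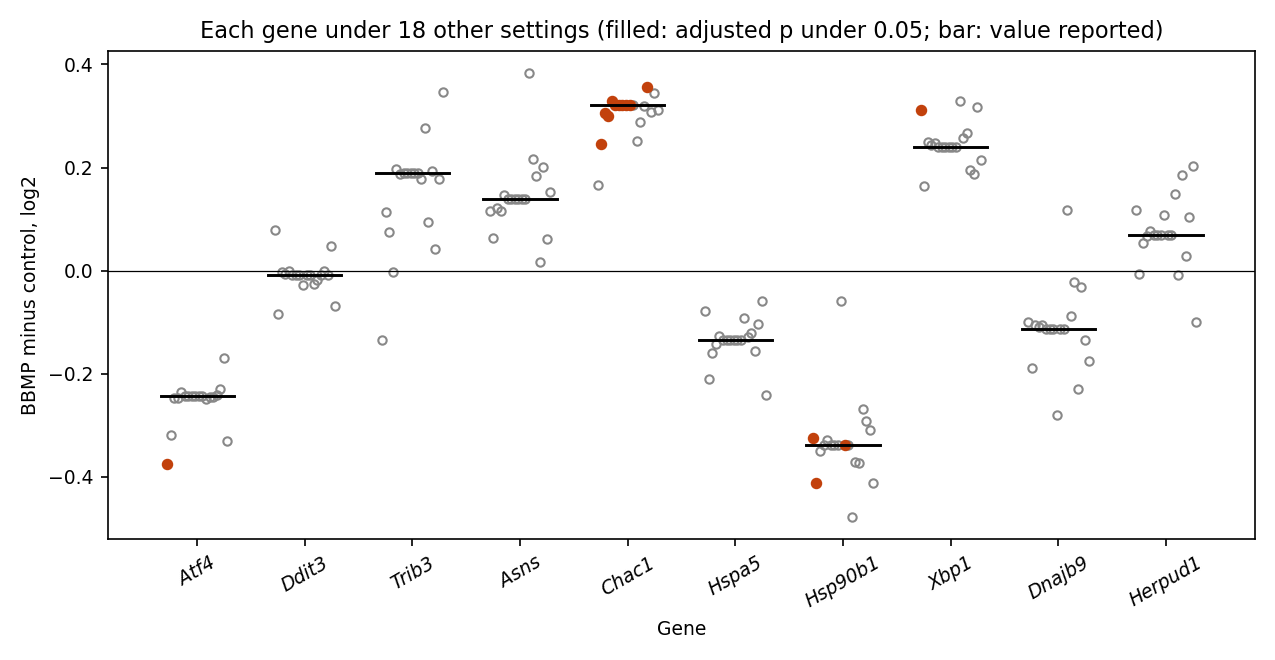
Difference between the groups (BBMP minus control, log2, vertical axis) of each gene under 18 other processing settings (points, filled where the adjusted p was under 0.05), with the reported value as a bar. The points of *Chac1* and *Xbp1* stay above 0 and those of *Atf4*, *Hspa5* and *Hsp90b1* below, while those of *Ddit3*, *Trib3*, *Dnajb9* and *Herpud1* lie on both sides of 0.

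Under the 18 other settings *Chac1* ranged from 0.17 to 0.36, *Xbp1* from 0.16 to 0.33 and *Asns* from 0.02 to 0.38, all above 0. *Atf4* ranged from -0.38 to -0.17, *Hspa5* from -0.24 to -0.06 and *Hsp90b1* from -0.48 to -0.06, all below 0. The sign of the difference turned in 2 of the 18 settings for *Ddit3*, 2 for *Trib3*, 1 for *Dnajb9* and 3 for *Herpud1*. For *Dnajb9* that setting was slide row as a block, which rests on control replicate 3 alone among the controls.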

How the data were processed

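RNA of 6 samples was labelled with Cy3 and hybridised to 1 array each, per the labels. The authors' scanner output came from Agilent Feature Extraction 10.7.1.1 per the file headers (10.7 per the submitters' processing notes). It gives linear intensity, both processed (background subtracted and detrended, per the file headers) and raw with a local background. They also hold flags, a score of 0 or 1 per the file headers, for spots well above background, saturated or outliers. In the authors' deposited table, which does not say how it was made, every probe has a ratio for each array. A column equalled the processed signal of another sample of the same group divided by a constant close to the 75th percentile; genes were not centred, and column medians lay between 0.1064 and 0.1131. Replicate numbers are therefore uncertain and group membership is not touched. It served as an alternative, as log2 values of the deposited ratio.

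Of 61657 non-control probes, 84 ERCC spike-in probes and 10 with an outlier flag were left out. Probes entered the test if every array of 1 group or of both had them well above background, and their log2 values were set relative to the 75th percentile of each array. Accessions were matched without versions to RefSeq names of the GRCr8 assembly, which named 27452 probes; the array design is based on rn4, and its coordinates were not used. Sequences are from RefSeq, GRCr8. The group difference was fitted in R 4.3.3 by limma 3.58.1, without covariates and with two-sided moderated tests, with Benjamini-Hochberg adjustment over all 31582 genes or sequences (the brightest probe of each) or over all 42657 probes. The fit was checked on simulated data with 31582 genes. Of 67, 67 and 66 genes changed 1.5-fold, 2-fold and 4-fold, it recovered 32.8%, 62.7% and 89.4%, with 6 false calls. The real arrays gave 5659 calls, so the simulation altered a much smaller share of genes. Its recovery rates may therefore not apply to the real arrays. Its false calls say nothing of calls made through slide or scan, from which the treatment cannot be told apart. Named pathway genes were up to 6 called genes per list with the largest change, or the 2 with the lowest adjusted p where none was called. The members and lists were chosen with earlier results of these data known. Same-numbered samples did not deviate together (correlations over genes, which are not independent, from -0.12 to -0.07), so numbers were not used to pair samples. Precision is limited by having 3 arrays in each group. Alternatives covered background correction (normexp, offset 50, on the median spot and background signals), scaling, the filter on dim probes, the probe used, moderation, blocks and leaving out each array. Plots were drawn with Python 3.11.15 and matplotlib 3.10.9.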

Additional observations from a re-analysis of the deposited data

How the results depend on the processing

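*Chac1* kept its call under 10 of 18 other settings. The count of 1 gene of the 10 called higher became 0 with the replicate block and with slide row as a block, and ranged from 0 to 1 when an array was left out; with normexp the 1 gene was *Xbp1*. With the replicate block and with slide row as a block limma called 0 genes in the whole table (9943 and 7288 with an unadjusted p under 0.05). The 0 genes called lower became 2 with normexp and 1 with median scaling or with trend and robust moderation. It was also 0 in each fit without an array, which says little, since calls over the whole table fell from 5659 to between 2 and 3966 in those fits. Called probes of the 10 genes numbered 0 higher and 0 lower with the replicate block and with slide row as a block; lower probes numbered 3 with normexp and 2 with median scaling or trend and robust moderation, and leaving out an array gave 0 to 2 higher and 0 to 1 lower. Pathway genes called higher, 7 as reported, became 2 with median scaling, 1 with no filter on dim probes and 0 with the replicate block or slide row as a block, in a range of 0 to 2 without an array. Those called lower, 5 as reported, became 10 with normexp, 2 with the mean of all tested probes and 0 with the replicate block or slide row as a block, in a range of 0 to 5 without an array. Signs turned for *Ddit3* (0.078 with normexp, and -0.068 to 0.049 when an array was left out), *Trib3* (-0.13 with normexp, -0.0030 with cyclic loess), *Dnajb9* (0.12 with slide row as a block) and *Herpud1* (-0.0063 with median scaling, and -0.10 to 0.20 when an array was left out), none of them called. Normexp moved the median of all genes from 0.05 to -0.06 and median scaling to -0.03. The cause of these changes was not tested, beyond fewer arrays where one was left out. The authors' ratios gave the counts reported.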
